A study of Homo sapiens with 12 samples.

Results

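The BCL2 family decides whether the outer mitochondrial membrane is opened during apoptosis. The 10 genes described here are the anti-apoptotic members BCL2, BCL2L1 and MCL1, the effectors BAX and BAK1, and the BH3-only members BCL2L11, BIK, BBC3, PMAIP1 and BID. They were chosen by name from the 22784 gene symbols of the expression table, and all 10 passed the filter on low values. RNA-seq was performed on SK-UT-1, an established human uterine leiomyosarcoma (uLMS) cell line, after 48 h with the vehicle (VEH in the labels, DMSO in the study), with 5 µM JQ1 or with 5 µM I-BET 762. Both compounds inhibit the bromodomain and extra-terminal (BET) proteins, and the comparisons ask how the transcripts of uLMS cells differ when these proteins are inhibited. The labels give 12 libraries, and 10 were analysed here: DMSO replicates 13 to 15, JQ1 replicates 17 to 20 and I-BET 762 replicates 21 to 23. Which inhibitor a treated library received was taken from its label alone, and whether the labels and the text of the study name the inhibitors in the same order could not be settled here, so JQ1 and I-BET 762 stand for the libraries so labelled. All groups share the same cell line, so the values describe that line and not tumours in general. The labels do not say that the libraries of a group came from separate cultures, so the p-values measure the spread between these libraries, which may be technical.

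Anti-apoptotic proteins hold BH3-only proteins and the effectors BAX and BAK in check by binding their BH3 segments. When free BH3-only proteins outnumber these binding sites, BAX and BAK assemble pores in the mitochondrial outer membrane, cytochrome c leaves the mitochondrion, and the apoptosome activates caspases. BET proteins read acetylated lysines on chromatin and recruit the transcription elongation machinery. JQ1 is a thienotriazolodiazepine that carries a tert-butyl ester, and I-BET 762 is a triazolobenzodiazepine that carries an ethyl amide.

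The sequences within the 250 bases before the start sites of 4 members are shown because BCL2L11, BCL2L1 and BBC3 had changes past 1.5-fold and because PMAIP1 differed between the inhibitors. They come from the RefSeq promoter table of GRCh38.p14, in which 8 of the 10 members had an entry, and bases within exons of Gencode V44 were left out. The entries without a match were MCL1 and BIK. Capitals mark matches to 4 motifs, which were searched on both strands and did not overlap each other in these windows. The letters GGGCGG stand for the GC box that Sp family factors bind. The CCAAT box was searched by its own letters. The letters CACGTG stand for the E-box that factors of the MYC family bind, and those of the TATA box were TATAAA. The BCL2L11 window is 250 bases at chr2:111120664-111120913 on the plus strand, inside the span of the gene model and in none of its exons, and the PMAIP1 window is 250 bases at chr18:59899746-59899995 on the plus strand. The BCL2L1 window is 224 bases at chr20:31723990-31724213 on the minus strand, and the BBC3 window is 151 bases at chr19:47232767-47232917 on the minus strand. With exon bases left out, the BCL2L1 window covers bases 250 to 27 before its start site. Another BCL2L1 entry lay wholly within exons, so no bases of it are shown. The BBC3 window covers bases 250 to 100 and so lacks the bases nearest the start.
BCL2L11: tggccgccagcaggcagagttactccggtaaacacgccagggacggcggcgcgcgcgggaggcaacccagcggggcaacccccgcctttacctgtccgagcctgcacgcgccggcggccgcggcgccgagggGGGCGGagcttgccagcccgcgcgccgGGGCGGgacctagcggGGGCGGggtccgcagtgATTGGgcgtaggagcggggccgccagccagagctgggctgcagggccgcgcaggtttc
PMAIP1: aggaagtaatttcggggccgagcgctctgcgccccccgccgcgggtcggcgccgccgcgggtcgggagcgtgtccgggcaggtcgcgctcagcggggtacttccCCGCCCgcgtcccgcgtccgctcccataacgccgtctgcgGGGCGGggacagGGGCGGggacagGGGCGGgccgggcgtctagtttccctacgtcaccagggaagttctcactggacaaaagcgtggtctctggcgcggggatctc
BCL2L1: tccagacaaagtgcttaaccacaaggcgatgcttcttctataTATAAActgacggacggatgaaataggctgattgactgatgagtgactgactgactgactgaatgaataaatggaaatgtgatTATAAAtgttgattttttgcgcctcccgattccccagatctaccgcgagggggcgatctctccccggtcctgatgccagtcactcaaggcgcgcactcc
BBC3: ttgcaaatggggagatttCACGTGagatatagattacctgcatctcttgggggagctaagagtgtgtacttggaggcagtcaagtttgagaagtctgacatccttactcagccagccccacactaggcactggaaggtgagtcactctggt
The BCL2L11 window had a GC content of 76.8%, with 3 GC boxes and 1 CCAAT box, and the PMAIP1 window had a GC content of 72.8%, with 4 GC boxes. At least 1 GC box was present in 42.6% of 35116 RefSeq promoters over the same 250 bases, and a CCAAT box in 32.0%. The BCL2L1 window had a GC content of 47.8% and 2 TATA boxes, and 8.5% of promoters held a TATA box in that window. The BBC3 window had a GC content of 49.0% and 1 E-box, and 3.0% of promoters held an E-box in that window. Of the windows not shown, that of BAX held 2 E-boxes, some of those of BID held 1 and that of BAK1 held 0. BAX shifted little, and BID was called with neither inhibitor. These matches describe letters and do not show binding.

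Reads on genes ranged from 35564586 to 39658989 per library, and 3 reads, the upper limit that a count of 0 allows, corresponded to 2.73 to 3.30 normalized counts. This limit covers counting error only. HEXIM1, which is known to rise with BET inhibition, rose 2.90-fold with JQ1 (adjusted p = 3.77e-13, limma) and 2.07-fold with I-BET 762 (adjusted p = 1.86e-10). MYC rose 2.0-fold with JQ1 (adjusted p = 1.28e-10) and 1.45-fold with I-BET 762 (adjusted p = 8.22e-07). HEXIM1 and MYC were both named as a check of BET inhibition, and the rise of MYC is not read as a sign of it. Of 7 smooth muscle markers, 6 were measured and MYH11 was not analysed here. ACTA2, TAGLN, CNN1, DES and CALD1 fell with both inhibitors and SMTN rose slightly, and the summed normalized count of the 6 was 20339.6 to 20968 in DMSO, 10618 to 11229 in JQ1 and 11758 to 12327 in I-BET 762 libraries. In the DMSO libraries CALD1 averaged 9439 ± 376 normalized counts, ACTA2 7071 ± 225, SMTN 2324 ± 226, TAGLN 1599 ± 46.0, DES 187 ± 0.57 and CNN1 95.4 ± 13.2 (SD, n = 3). The mesenchymal marker VIM rose with JQ1 and was not called with I-BET 762, and of the 4 epithelial markers EPCAM, KRT8 and KRT18 fell with both inhibitors while CDH1 was too low to be tested. The summed epithelial markers were at 469.7 to 531 normalized counts in DMSO, 271 to 336 in JQ1 and 311 to 343 in I-BET 762 libraries. The immune markers PTPRC and CD68 together, and the endothelial markers PECAM1 and VWF together, did not exceed 5.81 normalized counts in any library, and CD3E was not analysed here. The part of these marker shifts in the results for the BCL2 family was not tested.

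The 10 genes changed in both directions with both inhibitors. With JQ1, MCL1, BCL2L11, BIK and PMAIP1 rose, and BCL2, BCL2L1, BAX and BBC3 fell. With I-BET 762, MCL1, BCL2L11 and BIK rose, and BCL2, BCL2L1, BAX, BAK1 and BBC3 fell. A gene was called when its adjusted p from limma was under 0.05 over all 14839 genes tested, and folds are on the scale of log2(normalized count + 1). JQ1 thus changed 8 of the 10 members, 4 up and 4 down, where 71.7% of all tested genes were called, 36.0% up and 35.6% down. I-BET 762 also changed 8 members, 3 up and 5 down, where 61.1% of all genes were called, 29.9% up and 31.3% down. Past 1.5-fold there were 5 members with JQ1, MCL1, BCL2L11, BIK, BCL2L1 and BBC3, against 36.1% of all genes, and 3 members with I-BET 762, BCL2L11, BIK and BBC3, against 26.9% of all genes. Of these, MCL1, BCL2L11 and BIK rose and BCL2L1 and BBC3 fell with JQ1, beside 13.3% and 22.8% of all genes, and BCL2L11 and BIK rose and BBC3 fell with I-BET 762, beside 8.96% and 17.9%. The shares of members called were thus near those of all genes. Libraries of the treated and DMSO groups did not overlap for 9 of 10 members in either comparison, where this held for 68.4% of all genes with JQ1 and 71.0% with I-BET 762. The median log2 fold change of the 10 members was -0.01 with JQ1 and -0.19 with I-BET 762, beside 0.01 and 0.00 over all tested genes. Both comparisons use the same 3 DMSO libraries. Rescaling to equal library totals moved the median of all genes to -0.18 with JQ1 and to -0.10 with I-BET 762. On that scale JQ1 raised 3 and lowered 5 members, and 1 member rose and 1 fell past 1.5-fold with I-BET 762. Shares of all genes called on that scale are not given here. Relative to that median PMAIP1 was at 0.31 and BAK1 at -0.11 with JQ1, and BIK at 0.59 with I-BET 762. Without rescaling their log2 fold changes were 0.32, -0.10 and 0.59. In RNA from whole cultures, fewer cells with a transcript and less of it per cell cannot be told apart.

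**Figure D1:**
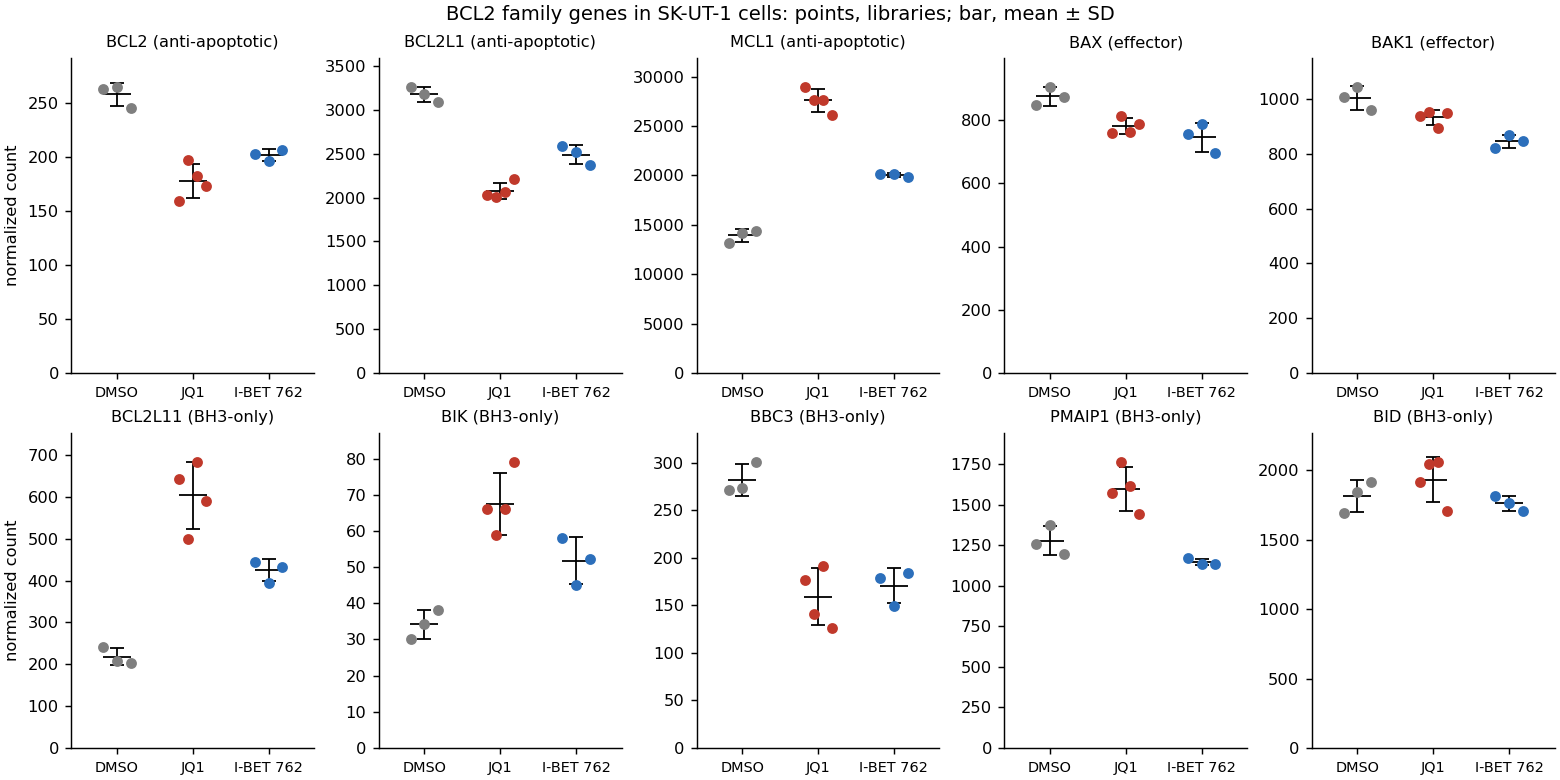
Normalized counts (vertical axes, each from 0) of the 10 BCL2 family genes in the DMSO, JQ1 and I-BET 762 groups, with 1 point per library and the mean ± SD of each group. MCL1, BCL2L11 and BIK lay higher in all treated libraries than in all DMSO libraries, BCL2, BCL2L1, BAX, BAK1 and BBC3 lay lower in all of them, PMAIP1 lay higher with JQ1 and lower with I-BET 762, and BID overlapped.

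**Figure D2:**
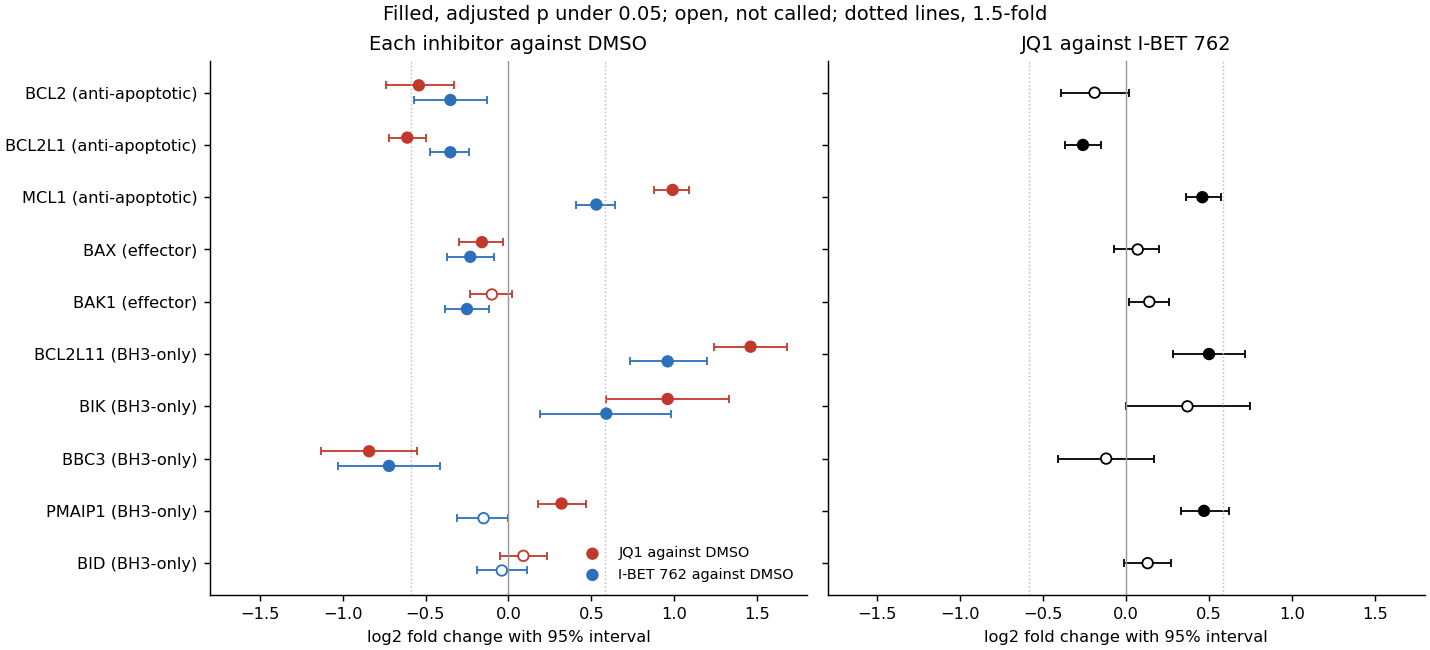
Log2 fold change (horizontal axis) with its 95% interval for each gene, on the left for each inhibitor against DMSO and on the right for JQ1 against I-BET 762. Filled points have an adjusted p under 0.05, open points do not, and dotted lines mark 1.5-fold; BCL2L11 lay farthest right, at 1.46 with JQ1 and 0.96 with I-BET 762.

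Among the anti-apoptotic genes, MCL1 rose while BCL2L1 and BCL2 fell. MCL1, a short-lived protein that sequesters BIM, NOXA and BAK, is annotated in Gencode V44 at chr1:150560895-150579738 on the minus strand. It was at 13198, 14219.7 and 14368 normalized counts in the DMSO libraries, at 28996, 27648, 27673 and 26125 with JQ1 and at 20131, 20141 and 19839.8 with I-BET 762. The JQ1 libraries were highest and the DMSO libraries lowest, with no overlap between any pair of groups. MCL1 rose 1.98-fold with JQ1 (log2 fold change 0.99 ± 0.05, SE, adjusted p = 4.65e-11) and 1.44-fold with I-BET 762 (0.53 ± 0.05, adjusted p = 3.45e-07). The symbol ADAMTSL4-AS1 carries the same values as MCL1 in all 10 libraries of the table, and the RefSeq span of ADAMTSL4-AS1 (chr1:150560895-150574552) and that of MCL1 (chr1:150574558-150579610) both lie within the Gencode V44 model of MCL1. Reads of these neighbours cannot be told apart in this table, so the MCL1 values are uncertain in that respect.

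BCL2L1 codes for BCL-XL, and its Gencode V44 model lies at chr20:31664452-31723989 on the minus strand, just downstream of the window with 2 TATA boxes shown above. Its normalized counts were 3267, 3183 and 3093 in DMSO, 2034, 2005, 2068 and 2214 in JQ1 and 2585, 2522 and 2369 in I-BET 762 libraries. Here the order was the reverse of that for MCL1, with DMSO highest, JQ1 lowest and no overlap. BCL2L1 fell 1.53-fold with JQ1 (log2 fold change -0.61 ± 0.05, adjusted p = 2.25e-08) and 1.28-fold with I-BET 762 (-0.35 ± 0.05, adjusted p = 4e-05). The antisense gene ABALON overlaps 1735 of its 4197 exon bases, and whether the counting used strand is not stated; ABALON itself did not exceed 15.8 normalized counts in any library.

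BCL2, the founding member of the family, is annotated at chr18:63123346-63320128 on the minus strand. The DMSO libraries held 263, 265 and 246 normalized counts of BCL2, the JQ1 libraries 159, 197, 182 and 173, and the I-BET 762 libraries 203, 197 and 207. All treated libraries lay below all DMSO libraries, and the treated groups overlapped each other. BCL2 fell 1.45-fold with JQ1 (-0.54 ± 0.10, adjusted p = 0.000126) and 1.28-fold with I-BET 762 (-0.35 ± 0.10, adjusted p = 0.0082).

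The effectors shifted little. BAX, which moves from the cytosol to mitochondria to form pores, lies at chr19:48954815-48961798 on the plus strand. BAX was at 847, 906 and 873 normalized counts in DMSO, at 758, 814, 762 and 789 with JQ1 and at 756, 787 and 696 with I-BET 762. Treated libraries lay below DMSO libraries by a small margin, and the treated groups overlapped. BAX fell 1.12-fold with JQ1 (-0.16 ± 0.06, adjusted p = 0.0267) and 1.17-fold with I-BET 762 (-0.23 ± 0.07, adjusted p = 0.00695). The JQ1 call was lost without DMSO replicate 14 (adjusted p = 0.107), DMSO replicate 15 (0.0631), JQ1 replicate 17 (0.0600) or JQ1 replicate 19 (0.0596), and over all alternatives this adjusted p ranged from 6.52e-05 to 0.107.

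BAK1 codes for BAK, the effector that resides on mitochondria, at chr6:33572547-33580293 on the minus strand. Normalized counts of BAK1 were 1006, 1046 and 961 in DMSO, 937, 953, 894 and 950.4 in JQ1 and 821, 870.2 and 847 in I-BET 762 libraries. DMSO was highest and I-BET 762 lowest, without overlap, but the gap between the lowest DMSO and the highest JQ1 library was narrow. BAK1 fell 1.19-fold with I-BET 762 (-0.25 ± 0.06, adjusted p = 0.00233), and its log2 fold change with JQ1 was -0.10 ± 0.06 (adjusted p = 0.111, not called). With equal library totals the JQ1 value became -0.29 (adjusted p = 0.000317), and over the alternatives its adjusted p ranged from 0.000317 to 0.333. Exact copies elsewhere in the genome exist for 8 of 26 stretches of 75 exon bases of BAK1, so some of its reads may have been assigned elsewhere or lost.

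The BH3-only genes moved in different directions: BCL2L11 and BIK rose with both inhibitors, BBC3 fell with both, PMAIP1 rose with JQ1, and BID was called with neither. BCL2L11 codes for BIM, which binds every anti-apoptotic member and can activate BAX and BAK directly, and its model spans chr2:111119378-111168444 on the plus strand. It measured 241, 209 and 204 normalized counts in DMSO, 643, 499, 684 and 590.3 in JQ1 and 446, 395 and 433 in I-BET 762 libraries. Each JQ1 library was above each I-BET 762 library, and each of those above each DMSO library. BCL2L11 rose 2.75-fold with JQ1 (1.46 ± 0.10, adjusted p = 3.41e-09) and 1.95-fold with I-BET 762 (0.96 ± 0.11, adjusted p = 1.84e-06), the largest rises among the members in each comparison. The antisense gene MIR4435-2HG overlaps 727 exon bases of BCL2L11 and had log2 fold changes of -1.28 (adjusted p = 4.23e-11) with JQ1 and -0.97 (adjusted p = 6.68e-09) with I-BET 762, opposite in sign to BCL2L11.

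BIK, a BH3-only protein of the endoplasmic reticulum, lies at chr22:43110750-43129712 on the plus strand and had the fewest reads of the members. Its normalized counts were 30.02, 34.2 and 38.2 in DMSO, 65.9, 58.8, 66.0 and 79.1 in JQ1 and 58.1, 45.1 and 52.2 in I-BET 762 libraries. The 3 groups did not overlap. BIK rose 1.95-fold with JQ1 (0.96 ± 0.18, adjusted p = 0.000133) and 1.501-fold with I-BET 762 (0.59 ± 0.19, adjusted p = 0.013). The I-BET 762 value thus lay only just past the 1.5-fold threshold. The I-BET 762 call was lost when DMSO replicate 13 was left out (adjusted p = 0.0524), and also when I-BET 762 replicate 21 was left out (adjusted p = 0.0579), and this adjusted p ranged from 0.00483 to 0.0579 over the alternatives.

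BBC3 codes for PUMA, a BH3-only protein best known as a p53 target, at chr19:47220822-47232766 on the minus strand. BBC3 gave 271, 274 and 301 normalized counts in DMSO, 177, 141, 191 and 127 in JQ1 and 179, 149 and 184 in I-BET 762 libraries. Treated libraries were all below DMSO, and JQ1 and I-BET 762 libraries were interleaved. BBC3 fell 1.79-fold with JQ1 (-0.84 ± 0.14, adjusted p = 4.36e-05) and 1.65-fold with I-BET 762 (-0.72 ± 0.15, adjusted p = 0.000478), the largest falls among the members.

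PMAIP1 codes for NOXA, which binds MCL1 with preference, and its model at chr18:59899996-59904305 on the plus strand begins right after the window with 4 GC boxes shown above. DMSO libraries had 1260.0, 1377 and 1199 normalized counts of PMAIP1, JQ1 libraries 1572, 1766, 1614 and 1442, and I-BET 762 libraries 1170.0, 1137 and 1135. JQ1 libraries were highest and I-BET 762 libraries lowest, with no overlap. PMAIP1 rose 1.25-fold with JQ1 (0.32 ± 0.07, adjusted p = 0.000514), and with I-BET 762 its log2 fold change was -0.15 ± 0.07 (adjusted p = 0.0778, not called). With equal library totals the JQ1 value was 0.14 (adjusted p = 0.0544), no longer called, and the I-BET 762 value -0.25 (adjusted p = 0.00358), then called. The I-BET 762 value was also called without DMSO replicate 15 (adjusted p = 0.0497), JQ1 replicate 18 (0.033) or JQ1 replicate 20 (0.0469) and with only the 2 groups compared (0.0194). Over all alternatives the JQ1 adjusted p ranged from 0.000111 to 0.0544 and the I-BET 762 adjusted p from 0.00358 to 0.305.

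BID links death receptors to mitochondria once caspase-8 cleaves it, and is annotated at chr22:17734138-17774770 on the minus strand. It was at 1690.0, 1841 and 1914 normalized counts in DMSO, at 1919, 2047, 2062 and 1709 with JQ1 and at 1814, 1765 and 1709 with I-BET 762. All 3 groups overlapped. The log2 fold change of BID was 0.09 with JQ1 (95% interval -0.05 to 0.23, adjusted p = 0.239) and -0.04 with I-BET 762 (-0.19 to 0.11, adjusted p = 0.641). The JQ1 value turned to -0.10 with equal library totals (adjusted p = 0.164) and was called without JQ1 replicate 20 (0.15, adjusted p = 0.0306), with a range of adjusted p from 0.0306 to 0.651 over its alternatives.

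The inhibitors were compared directly for the 10 members at the same dose of 5 µM and the same time of 48 h, with p-values adjusted over all 14839 genes. MCL1 was 1.38-fold higher with JQ1 than with I-BET 762 (log2 difference 0.46, 95% interval 0.36 to 0.57, adjusted p = 8.3e-06), PMAIP1 was 1.39-fold higher (0.47, 0.33 to 0.62, adjusted p = 0.000123), and BCL2L11 was 1.41-fold higher (0.50, 0.28 to 0.72, adjusted p = 0.00238). BCL2L1 was 1.20-fold lower with JQ1 (-0.26, -0.37 to -0.15, adjusted p = 0.00155). These 4 of 10 members were called, 3 up and 1 down, where 27.3% of all genes were called, 13.3% up and 14.0% down. None differed by more than 1.5-fold by limma, at an adjusted or an unadjusted p under 0.05, and limma-voom called 0 past 1.5-fold, beside 5.31% of all genes by limma, 1.73% up and 3.59% down. Libraries of 6 of the 10 members did not overlap between the inhibitors, where this held for 33.8% of all genes. For the members not called, the log2 difference was 0.37 for BIK (0.00 to 0.75, adjusted p = 0.127), 0.14 for BAK1 (0.02 to 0.26, adjusted p = 0.0761) and -0.19 for BCL2 (-0.39 to 0.02, adjusted p = 0.173). It was 0.13 for BID (-0.01 to 0.27, adjusted p = 0.162), 0.07 for BAX (-0.07 to 0.20, adjusted p = 0.461) and -0.12 for BBC3 (-0.41 to 0.17, adjusted p = 0.57). These intervals do not show that the inhibitors act alike on those genes. With equal library totals the difference for BCL2 was called (-0.27, adjusted p = 0.0377), which made 3 higher and 2 lower, and that for BAX turned to -0.02. The median difference over all genes on that scale was -0.09, and the shares of all genes called on it are not given here. Without JQ1 replicate 20 the difference for BID was called (0.19, adjusted p = 0.0221), and without JQ1 replicate 18 BCL2L11 passed 1.5-fold (0.59).

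Levels were compared between genes as normalized counts per kilobase of merged exons. In DMSO libraries MCL1 was the most abundant member, at 2239 ± 102 (SD, n = 3), followed by BCL2L1 at 758 ± 20.7, PMAIP1 at 585 ± 41.4, BAK1 at 454 ± 19.1, BID at 411 ± 25.8 and BAX at 338 ± 11.4. BBC3 at 88.5 ± 5.24, BIK at 35.9 ± 4.31, BCL2L11 at 32.3 ± 3.0 and BCL2 at 20.5 ± 0.858 were the low group. Neighbours in this order did not overlap between libraries except BIK and BCL2L11. With JQ1, PMAIP1 at 731 ± 61.0 (n = 4) stood above BCL2L1 at 496 ± 22.1, and BCL2L11 moved from the ninth to the seventh place at 89.6 ± 11.8, overlapping BIK at 70.9 ± 8.92 and above BBC3 at 49.9 ± 9.41. With I-BET 762, BCL2L1 at 594 ± 26.4 stayed above PMAIP1 at 525 ± 8.99 (n = 3), and BCL2L11 at 63.0 ± 3.92 overlapped BIK at 54.4 ± 6.81, which in turn overlapped BBC3 at 53.6 ± 5.89. BID and BAK1 overlapped in both treated groups. The merged length of MCL1 includes the span named ADAMTSL4-AS1 by RefSeq. Dividing by the longest annotated transcript kept MCL1 and BCL2L1 at the top of the DMSO order and BCL2 at its end, but placed BAX above BAK1 and BID above PMAIP1. It also placed BCL2L11 at 42.2 above BIK at 35.9, and BCL2 at 34.6 was then close to BIK. The places between BCL2L1 and BBC3, and those of BIK and BCL2L11, thus depend on the length used.

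**Figure D3:**
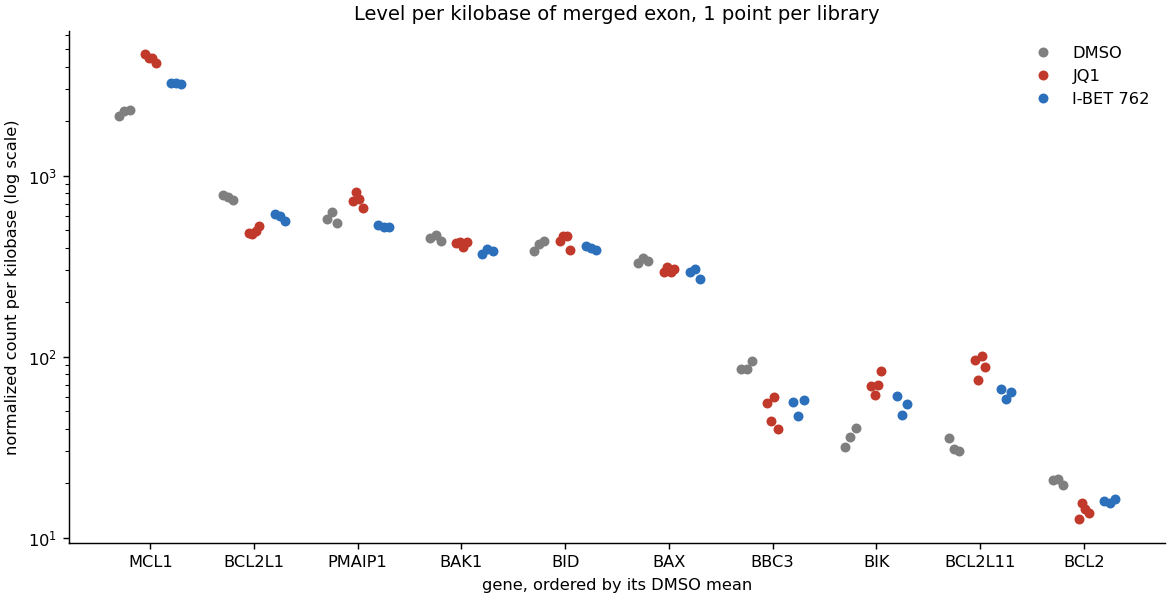
Normalized count per kilobase of merged exon (vertical axis, log scale) of each gene, ordered by its DMSO mean, with 1 point per library. MCL1 lay above every other member in all groups and BCL2 lay below every other member, and BCL2L11 moved from the level of BIK in DMSO to a level above BBC3 with JQ1.

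As a share of the summed level per kilobase of the 10 members, MCL1 took 44.1% to 46.3% in DMSO, 62.3% to 64.3% in JQ1 and 57.2% to 57.9% in I-BET 762 libraries. BCL2L1 took 14.8% to 16.2%, 6.69% to 7.84% and 10.3% to 10.9% in the same order. The anti-apoptotic genes together were at 60.3% to 61.5% in DMSO, 69.2% to 71.2% in JQ1 and 68.3% to 68.5% in I-BET 762 libraries. When MCL1 was left out, BCL2 and BCL2L1 together were at 27.8% to 29.7%, 18.3% to 21.4% and 25.1% to 26.1% of the remaining members. The direction of this share thus turned on whether MCL1 was counted. The ratio of MCL1 to BCL2L1 per kilobase was 2.96 ± 0.21 in DMSO, 8.98 ± 0.719 in JQ1 and 5.43 ± 0.201 in I-BET 762 libraries. That of BCL2L11 to BCL2L1 was 0.0426 ± 0.0029, 0.181 ± 0.0243 and 0.106 ± 0.00821, and that of BCL2L11 to MCL1 was 0.0145 ± 0.00205, 0.0202 ± 0.00257 and 0.0196 ± 0.00127. BCL2L11 relative to MCL1 ranged from 0.0131 to 0.0169 in DMSO and from 0.0167 to 0.0228 in JQ1 libraries, so these groups overlapped. PMAIP1 relative to MCL1 was lower with both inhibitors, at 0.262 ± 0.021 in DMSO, 0.165 ± 0.0124 in JQ1 and 0.163 ± 0.00238 in I-BET 762 libraries. BAX relative to BAK1 was at 0.746 ± 0.0285, 0.715 ± 0.0182 and 0.754 ± 0.0452, with overlap of all groups. Ratios and shares are descriptions of transcript levels without a test, and they say nothing of protein.

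**Figure D4:**
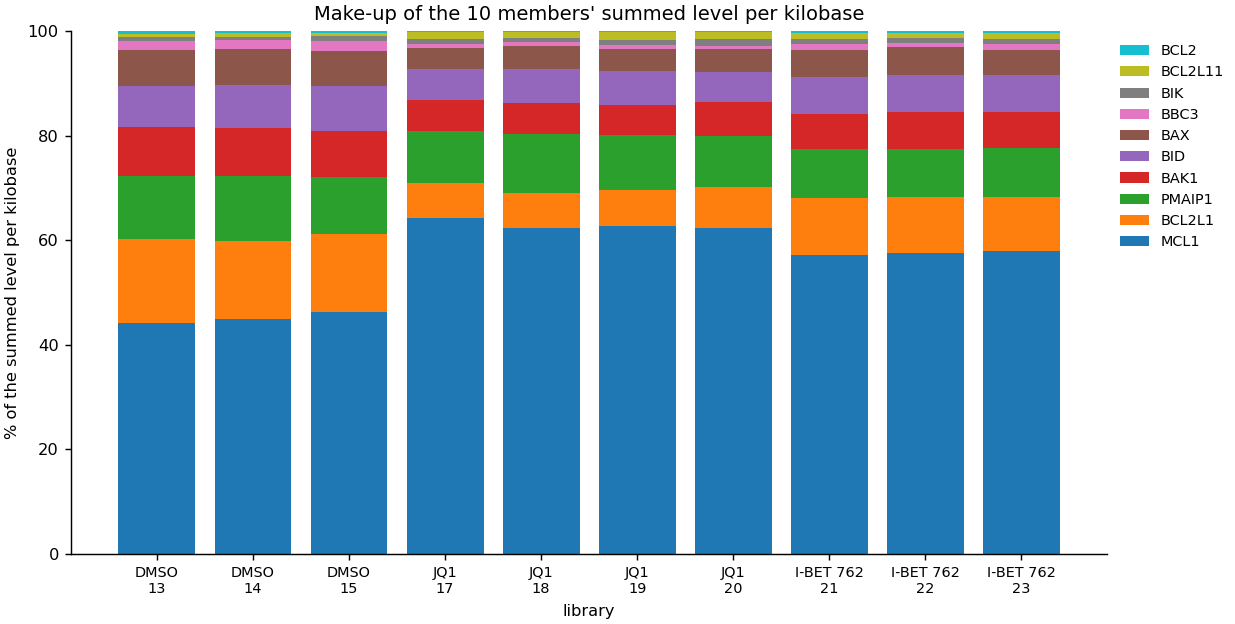
Share of the summed level per kilobase (vertical axis, percent) that each of the 10 genes took in each of the 10 libraries (stacked bars). The MCL1 segment covered 44.1% to 46.3% of the bar in DMSO, 62.3% to 64.3% in JQ1 and 57.2% to 57.9% in I-BET 762 libraries.

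For each member past 1.5-fold, the tested genes with the most similar pattern were found by the root mean square difference of log2 values over the 10 libraries, each centred on the DMSO mean. Nearest to BCL2L1 were CDK5RAP2 (0.032), CHD6 (0.036) and GTPBP2 (0.037). Apart from ADAMTSL4-AS1, which has identical values, the nearest to MCL1 were TST (0.050) and TMX4 (0.053). PNPLA2 (0.084), CSRNP1 (0.137) and OSGIN1 (0.137) were nearest to BCL2L11, and MYC (0.132) and BOP1 (0.138) were among the 3 nearest to BIK. Nearest to BBC3 were ZNF783 (0.110), MID1IP1 (0.119) and ZNF710 (0.127). Likeness over 10 libraries in 3 groups is a description only.

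Of 13 further BCL2 family genes, 12 were in the table and 10 were tested, and BCL2L14 was not analysed here. JQ1 raised 3 of them, BNIP3, BNIP3L and BCL2L12, and lowered 4, BAD, HRK, BOK and BCL2L13. I-BET 762 raised BNIP3L and BCL2L12 and lowered the same 4 genes. These 7 and 6 of 10 tested genes stand beside the 71.7% and 61.1% of all genes called. The median log2 fold change of the 10 tested genes was -0.14 with JQ1 and -0.11 with I-BET 762. BAD, a BH3-only protein controlled by survival kinases, was at 1530.2, 1561 and 1563 normalized counts in DMSO, 825, 712, 861 and 615 in JQ1 and 766, 805 and 725 in I-BET 762 libraries. It fell 2.08-fold with JQ1 (-1.05 ± 0.09, adjusted p = 4.38e-08) and 2.03-fold with I-BET 762 (-1.02 ± 0.10, adjusted p = 2.73e-07). BAD shares 404 exon bases with GPR137 on the opposite strand. HRK, a BH3-only gene best known from neurons, had at most 46.2 normalized counts and fell 2.12-fold with JQ1 (adjusted p = 0.00172) and 1.95-fold with I-BET 762 (adjusted p = 0.00804).

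BNIP3, a mitophagy receptor related to the BH3-only proteins, differed between the inhibitors. It was at 6698, 7449 and 7246 normalized counts in DMSO, 12021, 11839.8, 11616 and 9674 in JQ1 and 6812, 7211 and 7354 in I-BET 762 libraries. JQ1 libraries stood apart while I-BET 762 libraries overlapped DMSO. BNIP3 rose 1.58-fold with JQ1 (0.66 ± 0.07, adjusted p = 2.8e-07) and had a log2 fold change of 0.00 with I-BET 762 (-0.15 to 0.15, adjusted p = 0.997), and the direct difference was 0.66 (adjusted p = 6.79e-06). Its relative BNIP3L rose 1.42-fold with JQ1 (adjusted p = 8.81e-07) and 1.32-fold with I-BET 762 (adjusted p = 3.54e-05). BCL2L12, which shares 734 exon bases with IRF3 on the opposite strand, rose 1.39-fold (adjusted p = 1.28e-05) and 1.22-fold (adjusted p = 0.00285). The log2 fold changes of BOK were -0.15 with JQ1 and -0.17 with I-BET 762 and those of BCL2L13 were -0.13 and -0.20, all called, and without DMSO replicate 14 the adjusted p for BOK was 0.0678 and 0.0613 and that for BCL2L13 with JQ1 was 0.0657. Without DMSO replicate 15 these values were 0.0598, 0.055 and 0.0505, and the adjusted p for BOK with I-BET 762 was 0.0531 without I-BET 762 replicate 22 and 0.078 without replicate 23. BCL2L2, the anti-apoptotic BCL-W, had log2 fold changes of -0.07 and -0.06, BMF of -0.16 and 0.09 and BCL2L15 of -0.47 and -0.43, with none called. With equal library totals BCL2L2 (-0.25, adjusted p = 0.0048) and BMF (-0.34, adjusted p = 0.0203) were called with JQ1. BCL2L2 shares 815 exon bases with BCL2L2-PABPN1 on the same strand, so reads there may have been assigned to either. BCL2A1 was at 0 reads in every library except 1 with 5 reads (I-BET 762 replicate 21), and BCL2L10 at 2 to 15 reads, too few to be tested.

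The wider apoptosis pathway also moved both ways. Of 39 listed genes, 38 were in the table and 35 were tested. With JQ1, 24 of them were called, 13 up and 11 down, and with I-BET 762 there were 22, 11 in each direction, beside the 71.7% and 61.1% of all genes called. The median log2 fold change over the tested list was 0.04 with JQ1 and 0.07 with I-BET 762. With equal library totals the JQ1 split became 10 up and 16 down, and the I-BET 762 split 8 up and 15 down. The median of all genes on that scale was -0.18 with JQ1 and -0.10 with I-BET 762. Shares of all genes called on that scale are not given here, so these splits do not show a tilt particular to this list. Downstream of mitochondria, CYCS, which codes for cytochrome c, rose 1.81-fold with JQ1 (adjusted p = 1.75e-08) and 1.37-fold with I-BET 762 (adjusted p = 7.81e-05).

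Among the initiator caspases of death receptors, CASP8 fell 2.78-fold with JQ1 (adjusted p = 1.06e-10) and 2.22-fold with I-BET 762 (adjusted p = 1.05e-08). CASP10 had 40 to 63 reads in DMSO, 0 to 4 in JQ1 and 6 to 10 in I-BET 762 libraries, with log2 fold changes of -4.03 (adjusted p = 2.19e-06) and -2.55 (adjusted p = 0.000627). Of 9 tested death receptor genes, 4 rose and 3 fell with each inhibitor, again beside 71.7% and 61.1% of all genes called, but these were not the same genes in both comparisons. FAS, a death receptor, had a log2 fold change of -0.15 with JQ1 (adjusted p = 0.0223) and of 0.18 with I-BET 762 (adjusted p = 0.0141), and the direct difference was -0.33 (adjusted p = 0.000438). The JQ1 call for FAS was lost without an intensity trend (adjusted p = 0.0543) and without DMSO replicate 14 (0.0862), DMSO replicate 15 (0.0622) or JQ1 replicates 17 (0.0556), 19 (0.0511) or 20 (0.0536), and the I-BET 762 call with equal library totals (0.143) and without DMSO replicate 13 (0.0531) or I-BET 762 replicate 23 (0.0811). FAS shares 387 exon bases with ACTA2 on the opposite strand. TRADD, an adaptor of death receptors, was called with JQ1 (0.45, adjusted p = 0.00116, and 0.0545 with equal library totals) and had 0.11 with I-BET 762 (adjusted p = 0.419), with a direct difference of 0.34 (adjusted p = 0.0244). TNFRSF10A, a receptor of TRAIL, had 0.04 with JQ1 (adjusted p = 0.569) and was called with I-BET 762 (-0.26, adjusted p = 0.00247), with a direct difference of 0.30 (adjusted p = 0.00192). FAS, TRADD and TNFRSF10A were named after their values were seen. RIPK1, a kinase of the receptor complexes, rose 2.14-fold with JQ1 (adjusted p = 5.16e-12) and 1.84-fold with I-BET 762 (adjusted p = 4.31e-10), and the decoy receptor TNFRSF10D rose 1.61-fold (adjusted p = 1.17e-08) and 1.38-fold (adjusted p = 4.07e-06). BIRC3, an inhibitor of apoptosis protein, rose 1.56-fold with JQ1 (adjusted p = 5.29e-06) and fell 1.25-fold with I-BET 762 (adjusted p = 0.00584), and the direct difference was 0.97 on the log2 scale (adjusted p = 1.59e-06). HTRA2, an antagonist of these inhibitors, fell 1.40-fold with JQ1 (adjusted p = 1.1e-06) and 1.65-fold with I-BET 762 (adjusted p = 4.87e-08); it shares 936 exon bases with LOXL3 on the opposite strand.

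Genes that act upstream of the BCL2 family included FOXO1, a transcription factor known to drive BCL2L11, which rose 2.17-fold with JQ1 (adjusted p = 8.19e-06) and 2.05-fold with I-BET 762 (adjusted p = 5.72e-05). FOXO1 shares 1352 exon bases with ENSG00000288542 on the same strand, so reads there may have been assigned to either. FOXO1 was low, at 44 to 49 reads in the DMSO libraries, and its part in the rise of BCL2L11 was not tested. DDIT3, a stress factor, rose 1.79-fold (adjusted p = 3.87e-08) and 1.55-fold (adjusted p = 3.84e-06). TP73, a p53 relative, fell 2.06-fold (adjusted p = 8.51e-06) and 1.63-fold (adjusted p = 0.00101). FBXW7, a ubiquitin ligase component for MCL1, rose 1.51-fold (adjusted p = 1.39e-08) and 1.42-fold (adjusted p = 4.45e-07). DDIT3 shares 355 exon bases with MARS1 and TP73 shares 633 with TP73-AS1, both on the opposite strand.

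**Figure D5:**
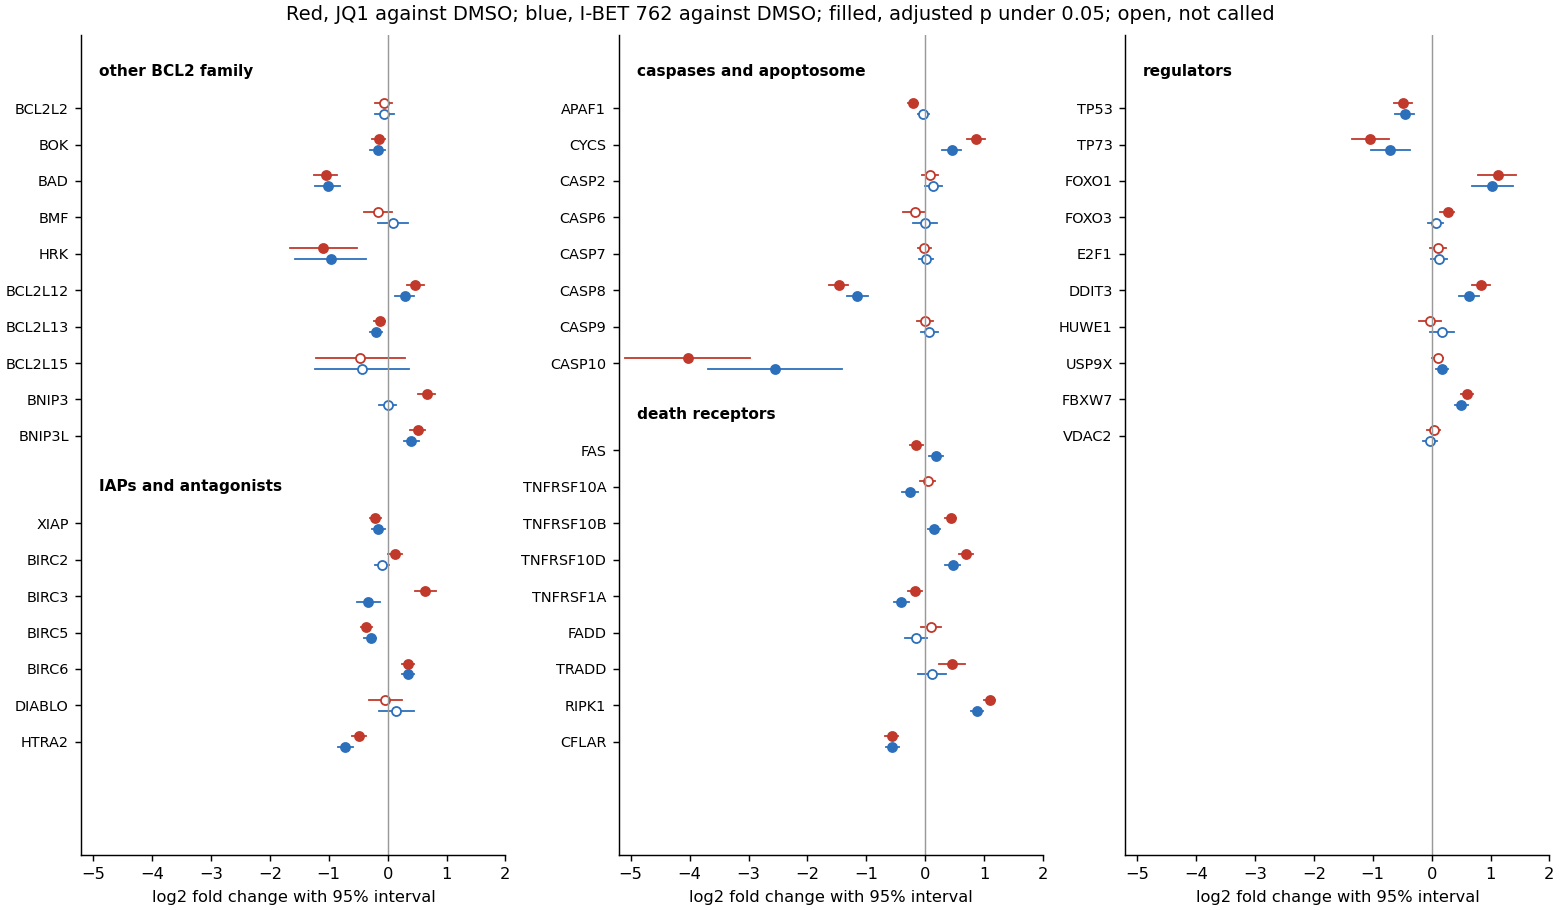
Log2 fold change (horizontal axis) with its 95% interval of 10 tested other BCL2 family genes and of 34 of the 35 tested apoptosis pathway genes by group, for JQ1 (red) and I-BET 762 (blue) against DMSO. Filled points have an adjusted p under 0.05 and open points do not; CASP10 lay farthest left, at -4.03 and -2.55, and FOXO1 and RIPK1 farthest right.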

How the data were processed

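The group of each SK-UT-1 library was its labelled treatment. According to the methods and processing notes, the authors checked reads with FastQC 0.73, trimmed them with Trimmomatic, aligned them to hg38 with HISAT2 2.2.1, counted them on Gencode V41 with featureCounts 2.0.3 and normalized with DESeq2, and outlier samples were excluded. Libraries were strand-specific, and the strand setting of the counting is not given in the sources used here. The values as deposited by the authors are log2 of the normalized count plus 1. Undoing the log2 and the added 1 gave whole reads (within 0.001 read) for 99.72% to 99.75% of values. No within-group pair of libraries (12 pairs) was identical or agreed within sampling noise (2.68 to 20.59 in chi-square for each gene). DMSO replicate 16 and I-BET 762 replicate 24 were not analysed here.

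Genes with at least 10 normalized counts in at least 3 libraries (14839) entered limma 3.58.1 (R 4.3.3), in a single model of 10 libraries with an intensity trend and Benjamini-Hochberg adjustment. The code was tested on simulated data. Lengths, overlaps and coordinates came from Gencode V44 on GRCh38, and promoters from RefSeq. Tables were made with Python 3.11.15, pandas 2.3.3 and numpy 2.4.6, and figures with matplotlib 3.10.9. Alternatives were other pseudocounts, filters and scalings, no trend, only the 2 groups compared, limma-voom on the recovered reads, a 2-fold threshold, the longest transcript as length, and each library left out. The named genes were all members, the other family genes, pathway genes called past 1.5-fold with either inhibitor, HEXIM1, MYC, markers and, for members past 1.5-fold, the 3 nearest genes. FAS, TRADD and TNFRSF10A were added after their values were seen. A pathway gene and a nearest gene that this rule names are not reported here. The members and lists were chosen with earlier results of these data known.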

Additional observations from a re-analysis of the deposited data

Results flagged for a closer look

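BNIP3 in JQ1 replicate 20 (9674 normalized counts) lay apart from the other JQ1 libraries, with a gap of 0.842 of the group's range on the log2 scale. It was the only such value among 37 groups of 4 libraries examined by Dixon's test, which flags about 1 in 20 by chance. PMAIP1, BNIP3, BIRC3, FAS and TNFRSF10A had opposite signs against DMSO with the 2 inhibitors, although the I-BET 762 value of BNIP3 rounded to 0.00, and the direct log2 difference between JQ1 and I-BET 762 was 0.47 for PMAIP1 (adjusted p = 0.000123, limma), 0.66 for BNIP3 (adjusted p = 6.79e-06), 0.97 for BIRC3 (adjusted p = 1.59e-06), -0.33 for FAS (adjusted p = 0.000438) and 0.30 for TNFRSF10A (adjusted p = 0.00192). Both values against DMSO were called for BIRC3 and FAS, the JQ1 value alone for PMAIP1 and BNIP3, and the I-BET 762 value alone for TNFRSF10A.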

How the results depend on the processing

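No paired analysis was possible because the replicate numbers of the groups are all different. For the 30 values of the members (10 genes in 3 comparisons), 567 alternatives were computed, of which 549 kept direction and call, 7 lost the call, 9 gained it and 2 reversed; BIK has no value under a mean count of at least 100, where it was not tested. Among 54 values of genes other than the members, 1012 alternatives gave 985, 18, 2 and 7. With a 2-fold threshold the members past the threshold numbered 1 in place of 5 for JQ1 and 0 in place of 3 for I-BET 762. The share of all genes past 2-fold is not given here, so this drop is not set against that of all genes. When single libraries were left out, there were 0 to 1 members past 1.5-fold between the inhibitors, 5 to 6 with JQ1 and 2 to 3 with I-BET 762. Ranked by the longest transcript, 4 of 10 members kept their DMSO place. With equal library totals, BID with JQ1 turned to -0.10, BAX between the inhibitors to -0.02, BMF with I-BET 762 to -0.01 and TNFRSF10A with JQ1 to -0.15. Relative to the median of all genes on that scale, BID with JQ1 was at 0.08 and BAX between the inhibitors at 0.07. Without rescaling they were at 0.09 and 0.07. Near zero, the I-BET 762 value of BCL2L2 was -0.09 to 0.00 and that of BNIP3 -0.04 to 0.03 when single libraries were left out, positive for BCL2L2 without DMSO replicate 14 and for BNIP3 without DMSO replicate 14 (0.03), DMSO replicate 15 (0.01) or I-BET 762 replicate 21 (0.03), and that of BNIP3 was also 0.00 with equal upper quartiles. The causes were not tested. Limma-voom on the recovered reads gave the same counts of members called as limma, 8, 8 and 4. Of the genes named, BCL2A1 and BCL2L10 had too few reads to be tested.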
